A study of Homo sapiens with 6 samples.

Results

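FOXA1, GATA3, XBP1, SPDEF, TFAP2A, TFAP2C, ELF3 and GRHL2 are 8 transcription factors of luminal breast epithelium. They were followed on 6 oligonucleotide arrays of T47D, a long-used human cell line from a luminal breast carcinoma. Every probe set that the platform annotation gives to only 1 of these genes was taken, with symbols brought up to date through the Entrez identifier. This gave 21 probe sets of 54613 that are not manufacturer's controls, and 8 genes of 19775. No probe set named a member together with another gene.

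GDC-0941, an inhibitor of all class I PI3 kinases, was given to the cells for 6 hours before RNA was taken (3 arrays). The labels write the dose as 1 mM, and the unit is uncertain because a micro sign may have been lost. Controls carried the agent label none (3 arrays), and whether they received solvent is not stated. Both groups were grown in the same serum-containing medium, and nothing says that arrays of a group came from separate cultures, so p-values measure only the spread between these arrays, which may be technical. Values are log2 RMA signals as deposited, 1 number per probe set and array, and a difference is the GDC-0941 mean minus the control mean on that scale. A probe set or gene was called at a limma adjusted p under 0.05.

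Luminal identity in breast cancer cells is kept by a small set of DNA-binding proteins. FOXA1 is a forkhead factor that opens closed chromatin so that the oestrogen receptor and GATA3 can bind, and the AP-2 factors TFAP2A and TFAP2C bind many of the same enhancers. ELF3 and SPDEF are epithelial members of the ETS family, and GRHL2, a grainyhead-like factor, holds cells in an epithelial state through junction genes. XBP1 links this programme to secretion: when unfolded protein builds up in the endoplasmic reticulum, the sensor IRE1 (gene ERN1) splices its mRNA, and the spliced form drives genes for protein folding and export. T47D carries an activating mutation of PIK3CA, the gene of a PI3 kinase catalytic subunit. PI3 kinase signalling acts through AKT on chromatin regulators and on FOXO forkhead factors.

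Of the members' promoters, 13 were matched for 6 genes (RefSeq, GRCh38.p14, 250 bases before to 50 bases after each gene start), among 35116 promoters in the table. TFAP2C and GRHL2 had no entry. FOXA1 and XBP1 are shown because both rose with each of their probe sets and because a short motif tied to the biology of each was found in the letters. The FOXA1 promoter lies on the minus strand at chr14:37595200-37595499, and the capitals mark GCAAACA, a forkhead motif, starting 235 bases before the gene start. The first of 2 XBP1 promoters lies on the minus strand at chr22:28800520-28800819, and its capitals mark an endoplasmic reticulum stress element (CCAAT and CCACG, 9 bases apart), starting 52 bases before the gene start. Both are written 5′ to 3′ on the gene's strand.
FOXA1: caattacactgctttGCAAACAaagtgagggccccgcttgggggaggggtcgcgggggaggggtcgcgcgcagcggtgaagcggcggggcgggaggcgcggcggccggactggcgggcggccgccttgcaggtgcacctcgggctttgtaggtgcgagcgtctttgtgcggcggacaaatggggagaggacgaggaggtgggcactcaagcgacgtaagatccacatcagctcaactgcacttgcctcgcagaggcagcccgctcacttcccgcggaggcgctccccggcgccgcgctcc
XBP1: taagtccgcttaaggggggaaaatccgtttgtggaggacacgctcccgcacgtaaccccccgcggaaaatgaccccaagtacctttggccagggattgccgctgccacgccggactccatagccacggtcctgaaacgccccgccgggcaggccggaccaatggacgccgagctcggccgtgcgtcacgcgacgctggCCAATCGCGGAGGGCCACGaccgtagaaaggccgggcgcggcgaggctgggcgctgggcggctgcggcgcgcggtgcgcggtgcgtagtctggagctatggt

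Both strands were searched in every promoter. GCAAACA was present in 3.89% of all promoters and in 2 of the 13 member promoters (FOXA1 and 1 of 6 for GATA3). Another forkhead form, GTAAACA, in 3.42% of all promoters, was in none of the 13. With the forms ATAAACA and ACAAACA added, a forkhead motif was in 15.1% of all promoters and in 4 of the 13, of FOXA1 and GATA3. The stress element was in 27 of 35116 promoters (0.0769%), and among the member promoters it was in that of XBP1 alone. CACGTG (7.26% of promoters) was found in 1 GATA3 promoter, and the AP-2 motif GCCNNNGGC (23.2%) in 4 promoters, of GATA3 and XBP1. The motif AGATAA of GATA factors (10.3% of promoters) was in none of the 13, and nor was the grainyhead motif ACCGGTT (0.772%). The oestrogen response element, GGTCA followed by TGACC with 3 bases between (0.057%), was in none either. A match describes the sequence and no more.

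As a check of the label, all 7 luminal markers fixed for it (KRT8, KRT18, KRT19, ESR1, PGR, EPCAM and CDH1) were measured, at 12.19 to 14.24 against a median of 8.20 over all genes. None of the 5 basal and mesenchymal markers measured (KRT5, KRT14, VIM, ZEB1 and SNAI2) exceeded that median, while 3 of the 12 genes measured in the wider basal and mesenchymal list did (FN1 at 10.00, CDH3 at 9.77 and EGFR at 8.78). The array medians were 7.34 to 7.38. Pearson's r across probe sets was 0.9970 to 0.9983 for arrays of 1 group and 0.9917 to 0.9942 for arrays of different groups, and no 2 arrays held identical values.

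FOXA1, XBP1 and TFAP2A were higher in GDC-0941 arrays, and no member was called lower. In RNA from a whole culture, a change of RNA per cell and a change in the share of cells of a kind cannot be told apart. The members were chosen with earlier results of these data known, so the shares below describe them and test no excess. Among the 21 member probe sets 7 were called higher, 33.3% of them, against 8.88% of all probe sets called higher. None was called lower, against 9.89% of all probe sets. With only probe sets above the median level tested, 18 member probe sets remained, 7 of them higher. There 17.7% of all probe sets were called higher and 21.5% lower. In 12 of the 21 (57.1%) all GDC-0941 arrays lay above all control arrays, against 15.6% of all probe sets. In 1 they lay below, and in 8 the groups overlapped, counts for which no share over all probe sets was computed. The 15.6% covers probe sets of every level and was not matched to the members' level. With 1 probe set per gene, the brightest, 4 of the 8 genes were called higher, namely FOXA1, XBP1, TFAP2A and ELF3, and 0 lower. The background among all genes, for every list's count too, was 12.1% called higher and 15.6% called lower. Among genes above the median level, which held all 8 members, 4 members were higher, against 23.2% called higher and 31.4% lower. The median difference was 0.10 over the member probe sets and -0.01 over all probe sets. Centring the arrays on their hybridisation controls, a constant shift of each array's RMA values, moved the median of all probe sets to 0.16. Apart from that shift, RMA's common distribution was kept. On that scaling 12 member probe sets were called higher, against 23.6% of all probe sets called higher and 2.65% lower. By gene 5 members were higher and 0 lower on it, against 28.8% of all genes called higher and 4.53% lower, the background for every list's count on that scaling.

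**Figure D1:**
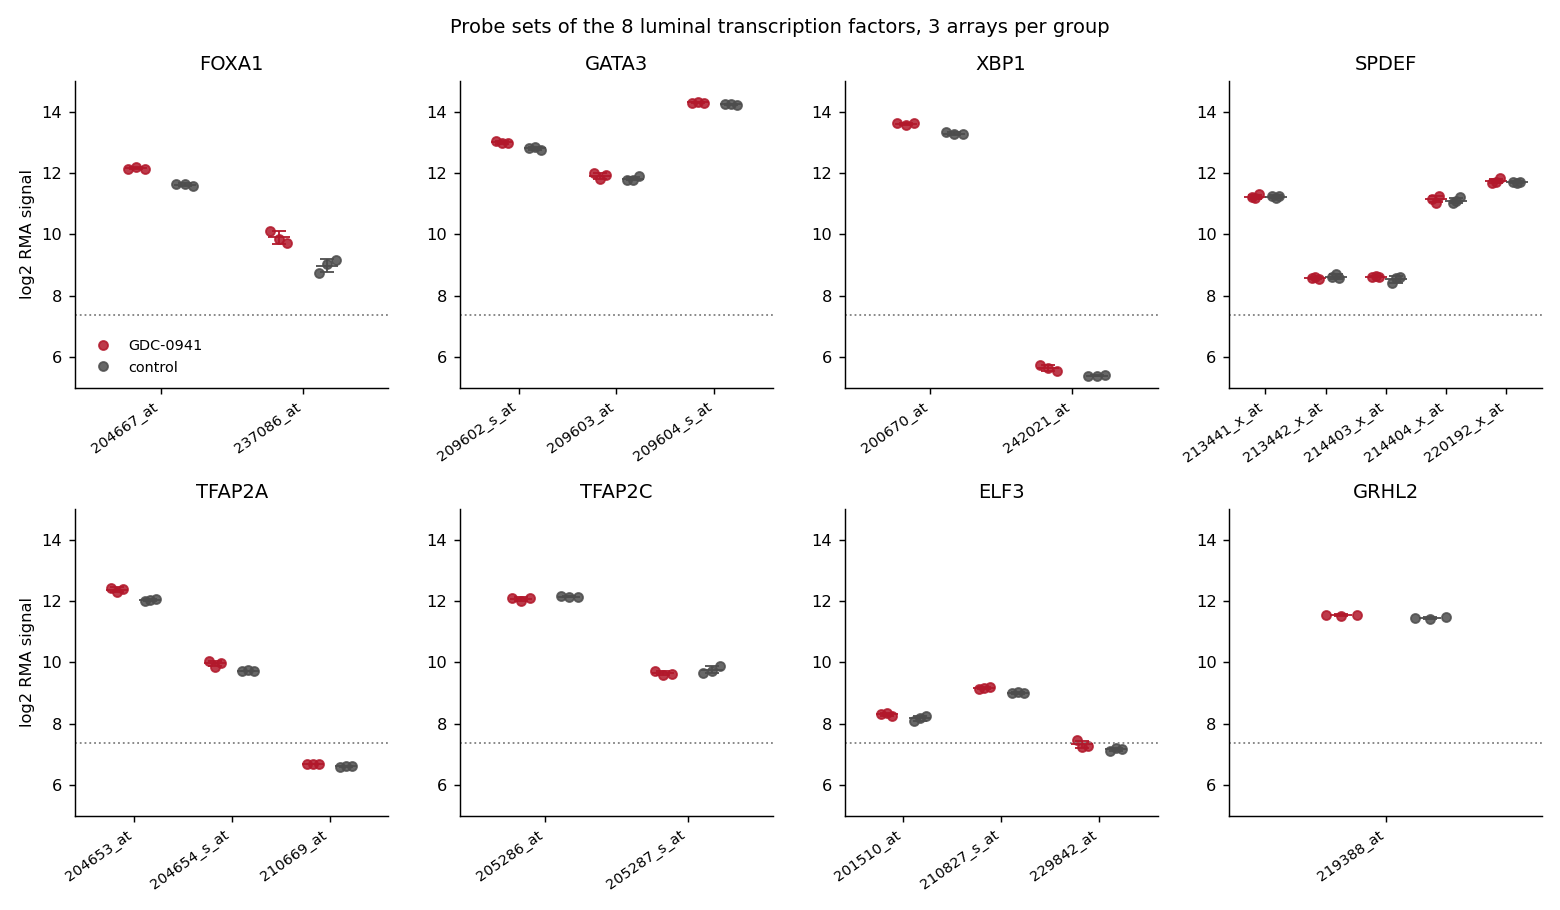
Log2 RMA signal of every probe set of the 8 genes (x axis, probe set; y axis, log2 signal) in 3 GDC-0941 arrays (red, left) and 3 control arrays (grey, right). Points are arrays, bars are means with SD, and the dotted line is the median of all probe sets (7.36); both FOXA1 probe sets stand clearly higher in GDC-0941, while the SPDEF groups overlap throughout.

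FOXA1 changed most among the members, and both of its probe sets rose. Probe set 204667_at read 12.14, 12.18 and 12.14 in the GDC-0941 arrays, against 11.66, 11.63 and 11.57 in the controls. Every GDC-0941 array lay above every control array, and the spread within each group was small beside the gap. The means were 12.15 ± 0.03 in GDC-0941 and 11.62 ± 0.04 in control (SD, n = 3 each), a difference of 0.53 ± 0.06 (SE; 95% interval 0.41 to 0.66), or 1.45-fold (limma adjusted p = 0.000107).

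The second FOXA1 probe set, 237086_at, read 10.12, 9.84 and 9.72 in GDC-0941 arrays, against 8.74, 9.03 and 9.15 in control arrays. Here too the groups did not overlap, with a wider spread in both. The difference was 0.92 ± 0.12 (SE; 95% interval 0.67 to 1.18), or 1.90-fold (limma adjusted p = 0.000249). Both FOXA1 calls held with each array left out in turn, with a lowest difference of 0.51 for 204667_at and 0.81 for 237086_at. The change at 237086_at exceeded that at 204667_at by 0.39 ± 0.19 (SE), with the 3 GDC-0941 arrays apart from the 3 controls in this quantity. An exact permutation test gave p = 0.1 two-sided, the smallest p that 3 against 3 arrays allow.

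GATA3, the zinc finger factor that specifies luminal cells, moved little. Probe set 209602_s_at read 13.04, 12.96 and 12.99 in GDC-0941 arrays and 12.82, 12.85 and 12.75 in control arrays. The groups were apart, by a difference of 0.19 ± 0.06 (SE; 95% interval 0.06 to 0.32), or 1.14-fold (limma adjusted p = 0.0482). This call sat at the threshold: it was lost whichever of the 6 arrays was left out (adjusted p 0.0665 to 0.148).

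The other GATA3 probe sets were not called. Probe set 209603_at read 11.99, 11.81 and 11.94 in GDC-0941, against 11.79, 11.78 and 11.89 in control, with overlapping groups (difference 0.10, 95% interval -0.05 to 0.25, limma adjusted p = 0.401). The brightest, 209604_s_at, read 14.29, 14.32 and 14.30 in GDC-0941 and 14.25, 14.25 and 14.23 in control, close to the highest value of the whole table, 14.81. Its groups were apart by only 0.06 (95% interval -0.07 to 0.18, limma adjusted p = 0.575). GATA3-AS1, the antisense transcript beside GATA3, had a probe set lower in GDC-0941 (240827_at, -0.44, limma adjusted p = 0.00322) and another that was not called (240192_at, 0.21, adjusted p = 0.126).

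The AP-2 pair split. TFAP2A probe set 204653_at read 12.43, 12.29 and 12.39 in GDC-0941 arrays, against 12.01, 12.05 and 12.05 in control arrays. All GDC-0941 arrays were above all controls, and the difference was 0.33 ± 0.06 (SE; 95% interval 0.20 to 0.47), or 1.26-fold (limma adjusted p = 0.00302), a call kept with each array left out. A second TFAP2A probe set, 204654_s_at, read 10.04, 9.86 and 9.99 in GDC-0941 and 9.71, 9.73 and 9.71 in control. It was 1.18-fold higher (difference 0.24 ± 0.06, limma adjusted p = 0.0214), and this call was lost when any array but GDC-0941 replicate 2 was left out (up to an adjusted p of 0.0808).

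The dim TFAP2A probe set 210669_at, which lay below the array median, read 6.69, 6.68 and 6.68 in GDC-0941 and 6.59, 6.61 and 6.63 in control and was not called (difference 0.07, limma adjusted p = 0.443). TFAP2A-AS1, antisense to TFAP2A, was measured by 1560503_a_at (0.22 higher, limma adjusted p = 0.0438) and by 1557070_at (0.04, adjusted p = 0.750). Array probes are made to 1 strand, and cross-reading between the partners was not tested.

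TFAP2C, the AP-2 factor tied to oestrogen receptor expression, did not rise. Probe set 205286_at read 12.09, 11.99 and 12.11 in GDC-0941 arrays, against 12.17, 12.14 and 12.13 in control arrays. It was the single member probe set with every GDC-0941 array below every control array, but the difference of -0.08 (95% interval -0.22 to 0.05) was not called (limma adjusted p = 0.420) and was 0.09 with arrays centred on hybridisation controls. Probe set 205287_s_at read 9.71, 9.59 and 9.62 in GDC-0941 and 9.66, 9.73 and 9.89 in control, overlapping (difference -0.12, 95% interval -0.28 to 0.04, limma adjusted p = 0.320; 0.05 on the hybridisation controls). The change of TFAP2A exceeded that of TFAP2C by 0.41 ± 0.03 on their brightest probe sets (exact permutation test, two-sided p = 0.1, the smallest the design allows), with the groups apart.

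ELF3, an ETS factor of differentiating epithelium, was slightly higher. Probe set 210827_s_at read 9.12, 9.18 and 9.21 in GDC-0941 and 8.99, 9.03 and 8.99 in control. The groups did not overlap, and the difference was 0.17 ± 0.06 (SE; 95% interval 0.04 to 0.29), or 1.12-fold. Adjusted over all probe sets it was not called (limma adjusted p = 0.0744), and adjusted over genes it was (0.0421). The gene call was lost when any array but GDC-0941 replicate 1 was left out (adjusted p 0.0733 to 0.165), and where probe sets whose name carries no mark for shared probes were taken first (unmarked probe sets first, 0.169).

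Neither other ELF3 probe set passed. Probe set 201510_at read 8.33, 8.34 and 8.25 in GDC-0941, against 8.10, 8.18 and 8.25 in control, with the groups touching (difference 0.13, limma adjusted p = 0.212). Probe set 229842_at, below the array median, read 7.46, 7.24 and 7.26 in GDC-0941 and 7.12, 7.19 and 7.16 in control (difference 0.16, limma adjusted p = 0.148), with the groups apart.

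SPDEF, an ETS factor of secretory and prostate epithelium, gave no called difference on any of 5 probe sets. All carry the manufacturer's suffix for probes that may match other transcripts too. The brightest, 220192_x_at, read 11.68, 11.70 and 11.82 in GDC-0941 arrays and 11.70, 11.66 and 11.72 in control arrays, with a difference of 0.04 (95% interval -0.10 to 0.18). By gene, SPDEF was called higher with array weights alone (0.13, limma adjusted p = 0.0194), a setting on which 21.4% of all genes were called higher. For 213441_x_at the values were 11.21, 11.18 and 11.30 in GDC-0941, against 11.24, 11.18 and 11.26 in control (95% interval of the difference -0.13 to 0.14). The groups overlapped on all 5, and the differences of the remaining probe sets were -0.05 (213442_x_at, positive at 0.12 on the hybridisation controls), 0.08 (214403_x_at) and 0.04 (214404_x_at).

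GRHL2 had 1 probe set, 219388_at, which read 11.56, 11.49 and 11.54 in GDC-0941 and 11.44, 11.40 and 11.48 in control. The GDC-0941 arrays were all above the controls, by a margin too small to be called (difference 0.09, 95% interval -0.04 to 0.22, limma adjusted p = 0.362). It was called higher on the hybridisation controls (0.26, limma adjusted p = 0.0492), and by gene with array weights (0.11, limma adjusted p = 0.0198).

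XBP1 rose on both of its probe sets. Probe set 200670_at read 13.62, 13.58 and 13.62 in GDC-0941 arrays, against 13.33, 13.26 and 13.27 in control arrays. The groups were well apart, and the difference was 0.32 ± 0.06 (SE; 95% interval 0.19 to 0.44), or 1.25-fold (limma adjusted p = 0.00268), a call that held with each array left out. The dim probe set 242021_at read 5.74, 5.63 and 5.53 in GDC-0941 and 5.36, 5.37 and 5.39 in control, below the array median of 7.36. It was 1.19-fold higher (difference 0.26 ± 0.07, limma adjusted p = 0.0209), and leaving out GDC-0941 replicate 1 or 2 or control replicate 1 or 2 ended this call (up to an adjusted p of 0.0669). No probe set is annotated to the spliced form of XBP1, so spliced and unspliced mRNA were not separated.

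**Figure D2:**
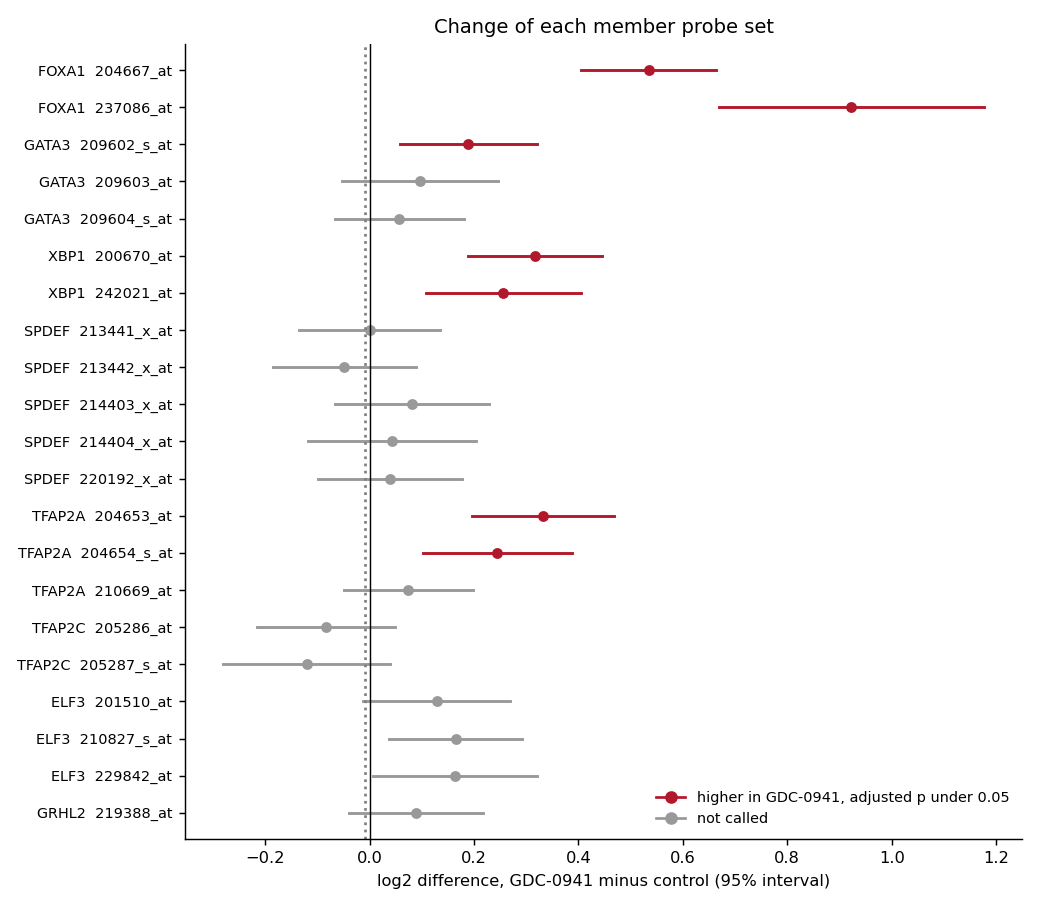
Difference of each member probe set, GDC-0941 minus control on the log2 scale (x axis), with its 95% interval, and the probe sets by gene (y axis). Red marks the 7 probe sets called higher at an adjusted p under 0.05, grey the 14 not called, and the dotted line is the median of all probe sets (-0.01).

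Family relatives of the members, measured on the brightest probe set of each gene, went both ways. Of 14 relatives 4 were called higher, 3 lower and 7 neither, with a median difference of -0.04 against -0.02 over all genes, and on the hybridisation controls 5 were higher and 0 lower. ELF5, an ETS factor of the alveolar lineage, read 12.03, 11.96 and 12.02 in GDC-0941 arrays and 11.42, 11.36 and 11.43 in control arrays, and was 1.51-fold higher (difference 0.60 ± 0.06, limma adjusted p = 1.51e-05). EHF, its epithelial ETS relative, read 13.09, 13.01 and 13.06 in GDC-0941, against 12.52, 12.46 and 12.54 in control, and was 1.46-fold higher (0.55 ± 0.06, limma adjusted p = 2.98e-05). Groups were apart for both, and both ELF5 probe sets and all 6 EHF probe sets were called higher.

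Within the ETS group the change of ELF5 exceeded that of ELF3 by 0.43 ± 0.05 and that of SPDEF by 0.56 ± 0.05. That of EHF exceeded ELF3 by 0.38 ± 0.06 and SPDEF by 0.51 ± 0.05. Arrays of the groups were apart in each of these 4 pairs, and each exact permutation p was 0.1 (two-sided, 0.1 after adjustment over the 8 pairs compared), which is the smallest possible.

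GATA2, a GATA factor best known from blood precursors, read 8.94, 8.92 and 9.04 in GDC-0941 arrays, against 9.36, 9.34 and 9.41 in control arrays. It was 1.32-fold lower (difference -0.40 ± 0.06, limma adjusted p = 0.000319), on 2 of 3 probe sets, and was at -0.23 and not called with arrays centred on hybridisation controls (adjusted p = 0.0503). The change of GATA3 lay above that of GATA2 by 0.46 ± 0.05, with the groups apart (exact permutation p = 0.1, the smallest possible). The other relatives called were GATA4 (0.32) and GRHL1 (0.29), both higher, and GATA6 (-0.28) and GRHL3 (-0.17), both lower. GATA4 was called on 2 of 5 probe sets, and with the mean of its probe sets it was at 0.13 and not called (limma adjusted p = 0.0712). The GRHL1 call was lost without control replicate 2 (limma adjusted p = 0.0502), that of GATA6 when any array but GDC-0941 replicate 1 was left out, and that of GRHL3 in 4 of the 6 cases (up to 0.152), and GRHL3 was at 0.00130 on the hybridisation controls. The change of GRHL1 exceeded that of GRHL2 by 0.20 ± 0.08 (exact permutation p = 0.1, the smallest possible). FOXA2 and FOXA3, the forkhead relatives of FOXA1, were at 0.07 and -0.05 and were not called, and nor were TFAP2B, TFAP2D and TFAP2E of the AP-2 family (-0.03, -0.02 and -0.07).

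**Figure D3:**
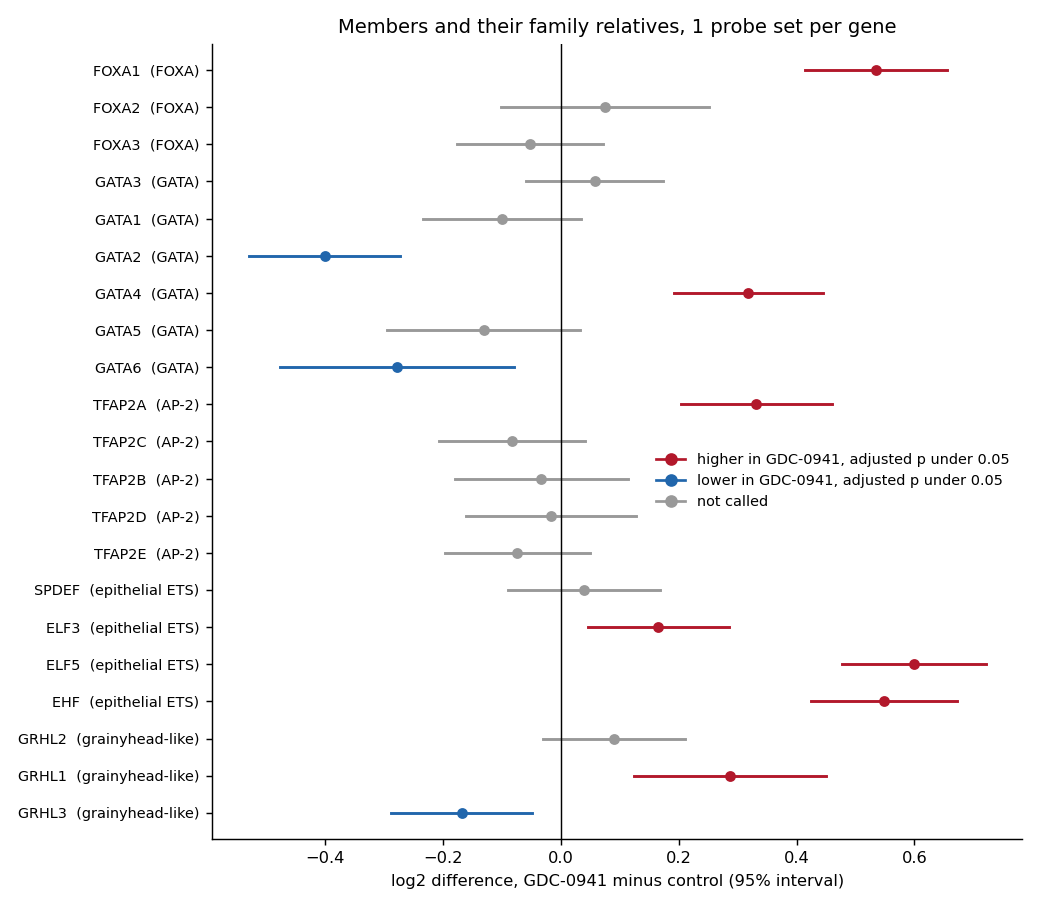
Difference of the members and their relatives by gene family (y axis; FOXA, GATA, AP-2, epithelial ETS and grainyhead-like), GDC-0941 minus control on the log2 scale with 95% intervals (x axis), 1 probe set per gene. ELF5, EHF and FOXA1 stand farthest to the right at 0.60, 0.55 and 0.53, and GATA2 farthest to the left at -0.40.

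Many genes listed as secretory targets of XBP1 were lower while XBP1 was higher, though fewer of them on the hybridisation controls. Whether XBP1 controls them in these cells was not tested. Of 23 listed targets measured, 13 were called lower, 4 higher and 6 neither, against a background of 15.6% called lower. The median difference was -0.19 against -0.02 over all genes. This list, too, was chosen with earlier results of these data known, so its counts describe it and test no excess. With only genes above the median level tested, 12 of 22 targets were lower and 4 higher. There 31.4% of all genes were called lower and 23.2% higher. With arrays centred on hybridisation controls 5 were called lower (SDF2L1, KDELR3, SRPRB, SEC61B and SEC24D) and 6 higher, and the list's median was -0.02 where that of all genes was 0.15. Those counts compare with 4.53% of all genes called lower and 28.8% higher on that scaling. Leaving out single arrays gave 11 to 12 lower and 1 to 4 higher, with the 1 reached without control replicate 2.

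SDF2L1, a component of chaperone complexes in the endoplasmic reticulum, read 8.98, 8.85 and 9.01 in GDC-0941 arrays and 9.94, 9.95 and 10.05 in control arrays. It was 2.04-fold lower (difference -1.03 ± 0.06, limma adjusted p = 9.21e-07), with the groups far apart. KDELR3, a receptor that returns escaped chaperones to the endoplasmic reticulum, read 9.54, 9.38 and 9.57 in GDC-0941, against 10.09, 10.22 and 10.30 in control (-0.71 ± 0.07, limma adjusted p = 2.71e-05), lower on 3 of 3 probe sets.

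SRPRB, part of the receptor for the signal recognition particle, read 11.04, 10.94 and 11.04 in GDC-0941 and 11.56, 11.49 and 11.54 in control (-0.53 ± 0.06, limma adjusted p = 4.52e-05). It too was lower on all 3 of its probe sets. The translocon subunits SEC61B (-0.50) and SEC61A1 (-0.24), the coat protein SEC24D (-0.46), the signal peptidase subunit SPCS3 (-0.31), SSR3 of the translocon-associated complex (-0.29) and SERP1 (-0.19) were lower as well. So were the folding factors CRELD2 (-0.39), DNAJB11 (-0.29), PDIA6 (-0.23) and HYOU1 (-0.18). For SERP1, 1 probe set was called higher and 1 lower, and the mean of its probe sets was 0.18 higher. With unmarked probe sets first, SPCS3 (-0.16, limma adjusted p = 0.102) and PDIA6 (-0.15, adjusted p = 0.105) were not called, and with the mean of its probe sets SSR3 was not (-0.17, adjusted p = 0.0714). The HYOU1 call was lost whichever array was left out, and that of SERP1 without GDC-0941 replicate 3 or control replicate 1 or 2 (limma adjusted p up to 0.102).

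The 4 targets called higher were HERPUD1 (0.38) and DNAJB9 (0.23), both of degradation and feedback at the endoplasmic reticulum, WIPI1 of autophagy (0.22), and SEC31A, a coat protein of export vesicles (0.20). Of these calls HERPUD1 alone was kept with every single array left out, and control replicate 2 was needed for the other 3. The WIPI1 call was lost when any array but GDC-0941 replicate 2 was left out. That of SEC31A was also lost without GDC-0941 replicate 1 and with the mean of its probe sets (0.14, limma adjusted p = 0.0650). WIPI1 was at 0.08 with unmarked probe sets first and at 0.15 with the mean of its probe sets, and was called in neither case (limma adjusted p = 0.391 and 0.0602). EDEM1, EDEM2, SEC23B, SSR1, DNAJC3 and PDIA4 were not called. Among the 4 sensors of unfolded protein, 2 were called higher (4 on the hybridisation controls). ERN1, which encodes IRE1, read 8.87, 8.57 and 8.76 in GDC-0941 arrays and 8.34, 8.41 and 8.57 in control arrays. The lowest GDC-0941 array lay just above the highest control, and the difference was 0.29 ± 0.08 (limma adjusted p = 0.0198), but 1 of its 3 probe sets alone was called.

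ATF6B was 0.20 higher (limma adjusted p = 0.0381), and ATF6 (0.10) and EIF2AK3 (0.12), which encodes PERK, were not called. The sensor calls were fragile. Without GDC-0941 replicate 1, GDC-0941 replicate 3 or control replicate 1, none of the 4 was called, and with the mean of each gene's probe sets none was either.

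**Figure D4:**
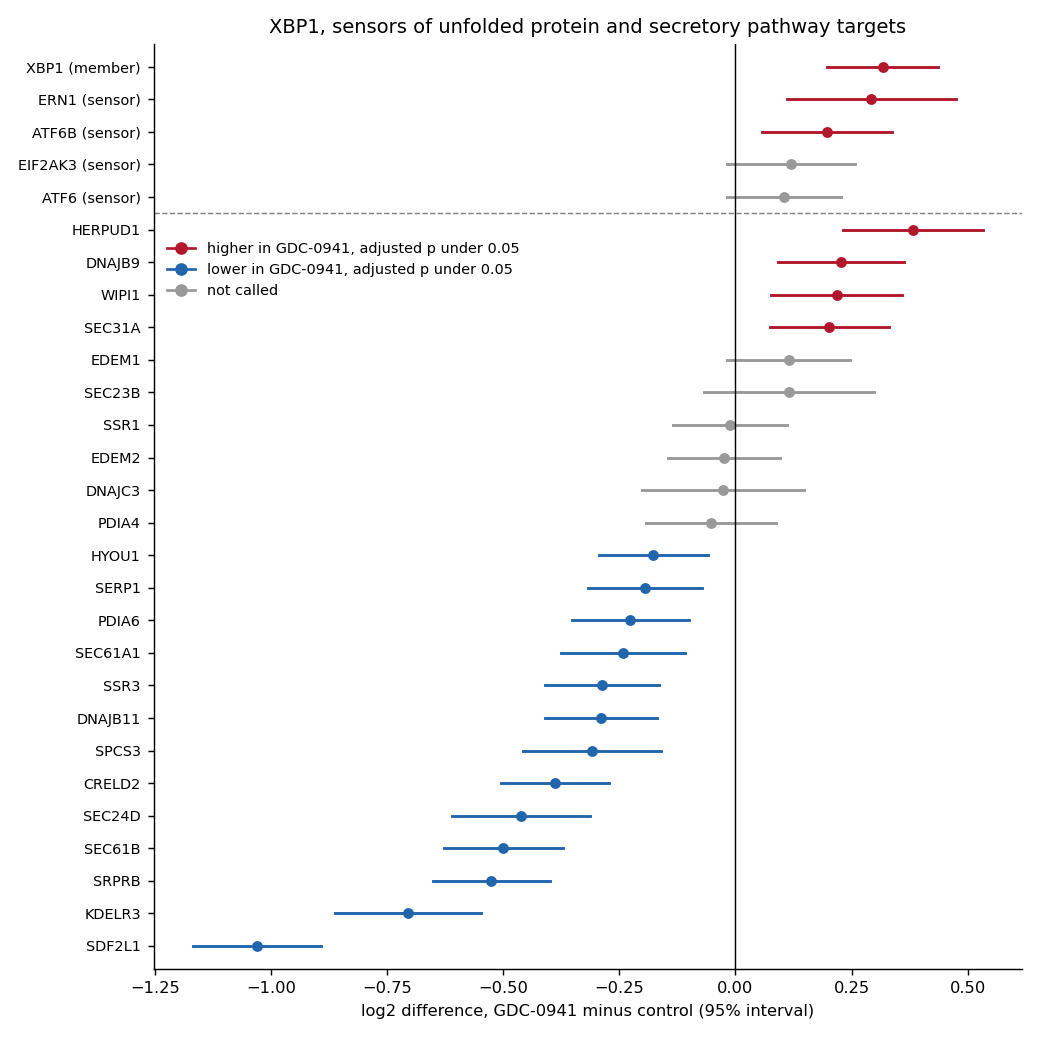
Difference of XBP1, the 4 sensors and the 23 secretory targets (y axis), GDC-0941 minus control on the log2 scale with 95% intervals (x axis), 1 probe set per gene. XBP1 lies at 0.32 while 13 targets, in blue, lie between -0.18 (HYOU1) and -1.03 (SDF2L1); 5 were called lower on the hybridisation controls.

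Steroid receptors and other luminal regulators were mixed. Of 12 measured, 5 were called higher, 2 lower and 5 neither (median 0.03), and on the hybridisation controls 6 were higher and 0 lower. With only genes above the median level tested, 5 of 11 were higher and 3 lower, against 23.2% and 31.4% of all genes there. PGR, the progesterone receptor and a classical target of the oestrogen receptor, read 13.71, 13.72 and 13.73 in GDC-0941, against 13.32, 13.29 and 13.29 in control. The groups were far apart for their spread (difference 0.42 ± 0.05, limma adjusted p = 0.000117), and both PGR probe sets were higher. NRIP1, a corepressor of nuclear receptors that is itself oestrogen-induced, was 0.51 ± 0.06 higher (adjusted p = 7.65e-05), and the factor MYB 0.36 ± 0.07 (adjusted p = 0.00155).

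ESR1, the oestrogen receptor with which FOXA1 and GATA3 work, read 12.20, 12.03 and 12.12 in GDC-0941 and 12.26, 12.24 and 12.28 in control. The GDC-0941 arrays were all below the controls, yet the difference of -0.14 (95% interval -0.28 to -0.01) was not called (limma adjusted p = 0.109) and was 0.03 on the hybridisation controls. It was called on 4 other settings, among them without GDC-0941 replicate 1 (adjusted p = 0.0404). RARA (0.26) and the methyltransferase KMT2C (0.26) were also higher, and KMT2D (-0.29), a methyltransferase of enhancers, and the coactivator CITED1 (-0.20) were lower. Leaving out any array but GDC-0941 replicate 2 ended the KMT2C call (limma adjusted p up to 0.0804), and leaving out GDC-0941 replicate 2 or control replicate 2 or 3 ended that of CITED1 (up to 0.0691). RARA was at -0.05 with unmarked probe sets first and at 0.08 with the mean of its probe sets, called in neither case.

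Luminal products divided too: of 15 measured, 3 were called higher and 6 lower (median -0.09), against 12.1% and 15.6% of all genes. With only genes above the median level tested, 4 were higher and 6 lower, against 23.2% and 31.4% of all genes there. On the hybridisation controls 5 were higher and 0 lower. GREB1, an oestrogen-induced cofactor of the receptor, read 12.36, 12.35 and 12.25 in GDC-0941, against 11.84, 11.70 and 11.37 in control. It was 1.61-fold higher (difference 0.68 ± 0.10, limma adjusted p = 0.000314), though 1 of its 3 probe sets alone was called. MLPH, a melanosome transport protein used as a luminal marker, was 0.44 ± 0.06 higher (adjusted p = 0.000126).

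TFF1, a secreted trefoil peptide and oestrogen target, read 9.95, 9.87 and 9.99 in GDC-0941 arrays and 10.41, 10.24 and 10.25 in control arrays. It was lower by the fit (difference -0.36 ± 0.07, limma adjusted p = 0.00132) and was at -0.20, not called, on the hybridisation controls (adjusted p = 0.101). The keratins KRT7 (-0.29), KRT8 (-0.23) and KRT18 (-0.21), AGR2 (-0.17) and TFF3 (-0.23) were the other products called lower. KRT8 and KRT18 each rest on 1 probe set with the suffix for probes that may match other transcripts. They were at -0.06 and -0.04, not called, on the hybridisation controls. No probe set of AGR2 or TFF3 was called when adjusted over all probe sets. For KRT7 1 of 4 probe sets was called, and the gene was not called at -0.07 with unmarked probe sets first (limma adjusted p = 0.492) or at -0.13 with the mean of its probe sets (adjusted p = 0.0968). AGR2 lost its call when any array but GDC-0941 replicate 2 was left out, and TFF3 without replicate 1 or 2 of GDC-0941 or of control (limma adjusted p up to 0.151).

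Epithelial junction and protease genes, the field of GRHL2, were called in 5 of 16 cases, 3 higher and 2 lower (median 0.01). Of all genes 12.1% were called higher and 15.6% lower. With only genes above the median level tested, 4 of 16 were higher and 2 lower, against 23.2% and 31.4% of all genes there. On the hybridisation controls 6 were higher and 1 lower. DSP, the desmosomal protein desmoplakin, was 0.54 ± 0.05 higher (limma adjusted p = 2.05e-05), CLDN7, a tight junction claudin, was lower (-0.47 ± 0.06, adjusted p = 7.71e-05), and the protease inhibitor SPINT1 was 0.20 higher (adjusted p = 0.0254). CDH1, which encodes E-cadherin, read 13.23, 13.20 and 13.23 in GDC-0941 and 13.04, 13.01 and 13.04 in control. The groups were apart (difference 0.19 ± 0.05, limma adjusted p = 0.0184), on 1 of 2 probe sets. The CDH1 call was lost without GDC-0941 replicate 3 or control replicate 1 or 2, and that of SPINT1 without replicate 1 or 3 of GDC-0941 or 1 or 2 of control and with the mean of its probe sets (0.12).

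Basal and mesenchymal genes gave 1 call in 12, lower (2 higher and 0 lower on the hybridisation controls). SNAI1, a repressor of E-cadherin, read 7.35, 7.31 and 7.39 in GDC-0941, against 7.66, 7.54 and 7.59 in control (difference -0.25 ± 0.06, limma adjusted p = 0.00716), and was at -0.08 and not called on the hybridisation controls. Of 10 fibroblast, immune and endothelial markers measured, 4 were above the median of all genes, and their mean level per array was 7.89 to 8.03 in GDC-0941 and 7.89 to 7.96 in control. COL1A1 alone was called (3 markers on the hybridisation controls), 0.56 ± 0.07 higher (limma adjusted p = 6.53e-05) on 3 of 5 probe sets, and its part in the other results was not tested.

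**Figure D5:**
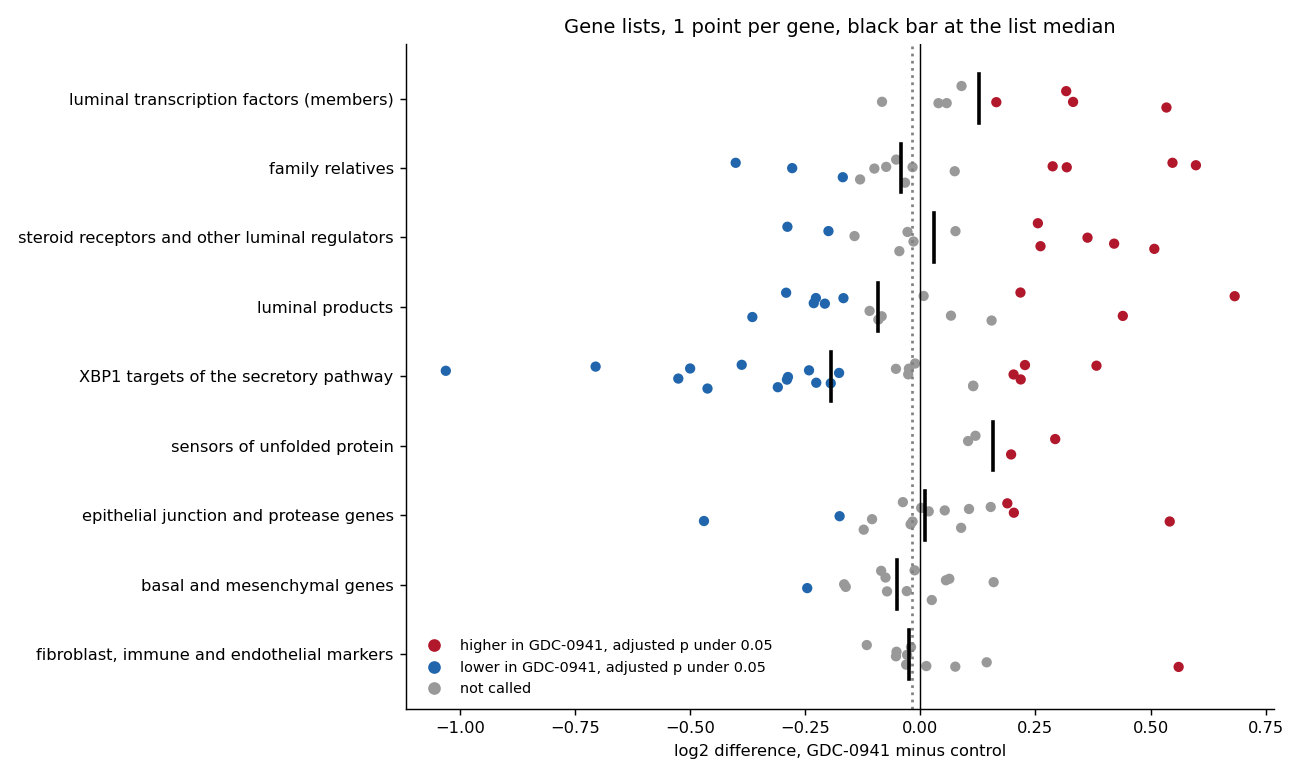
Difference of each gene (points; GDC-0941 minus control, log2 scale, x axis) in the 9 lists (y axis), with a black bar at each list's median and a dotted line at the median of all genes (-0.02). The luminal transcription factors have a median of 0.13 with none called lower, and the listed secretory targets of XBP1 a median of -0.19 with 13 of 23 called lower (5 on the hybridisation controls). All lists were chosen with earlier results of these data known.

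The genes whose course over the 6 arrays was most like that of each called member were named by the root mean square distance, after each gene's own mean was subtracted, among genes within 1 log2 unit of its level. Since the 2 groups differ for each of these members, nearness here chiefly means an equal difference between groups, and it is a description with no test. For FOXA1 they were DSP (distance 0.03) and IRF2BP2 (0.04), with differences of 0.54 and 0.50. For XBP1 they were WDR26 and MTHFD2 (0.02 each; differences 0.29 and 0.34). GHR and SMC4 were nearest to TFAP2A (0.02 each; differences 0.36 and 0.31), and ZNF665 and GPR176 to ELF3 (0.02 each; differences 0.14 and 0.15). DSP was thus both the epithelial junction gene with the largest change and the gene closest to FOXA1 among 1871 candidates.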

How the data were processed

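The deposited table holds log2 values of 54675 probe sets on 6 arrays. Per the submitters' processing notes the authors used RMA, which corrects background, gives all arrays a common distribution and summarises probes, so a shift common to most transcripts cannot be seen. No version of it is stated, and the values themselves gave the log2 scale (3.00 to 14.81). RMA gives no detection call and no filter on dim values was used. Manufacturer's controls (62) were left out. Of the 54613 other probe sets the annotation names 1 gene for 41091, several for 1801 and none for 11721. Entrez identifiers gave a current symbol for 41037 of the 41091, from the RefSeq gene table of GRCh38.p14.

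GDC-0941 was compared with control in limma 3.58.1 under R 4.3.3 (lmFit and eBayes, two-sided, no block), adjusted by Benjamini-Hochberg over all 54613 probe sets, and again over 19775 genes, each by its brightest single-gene probe set. Pairs of changes were compared with an exact permutation test over the 20 splits of 6 arrays. Members and lists were chosen with earlier results of these data known. Of each list the 3 called genes with the largest change were named, or the one with the smallest p, besides ESR1, PGR, ERN1 and CDH1. Other list genes were named after their values were seen. Same-numbered arrays deviated together with r = -0.34, 0.14 and -0.03, so replicate numbers were not taken as pairs. The number of arrays, 3 per group, limits precision, and the median SE of a difference was 0.07. Alternatives were a replicate block (the replicate number as a factor), a repeated quantile normalization, each array left out, centring on array medians or on 18 hybridisation controls, array weights (statmod 1.5.0), robust eBayes with a trend, probe sets above the median level, an adjusted p under 0.01 and other rules for the probe set of a gene. For the lists and their named genes the same alternatives were chosen after seeing the data. The array weights came with a warning that their convergence tolerance was not achievable, and their values are as returned. Figures were drawn with matplotlib 3.10.9.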

Additional observations from a re-analysis of the deposited data

How the results depend on the processing

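Member probe sets called higher numbered 7, and 4 to 5 with 1 array left out (4 without GDC-0941 replicate 1, control replicate 1 or control replicate 2), 12 with hybridisation control centring, 4 at an adjusted p under 0.01, and 6 to 8 on the other settings run. With the replicate block, 6 probe sets and 3 genes were higher, against 7 and 4 without it; the samples share only a number. Over all settings 5.38% to 23.6% of all probe sets were called higher, and 8.18% to 28.8% of all genes. By gene 3 to 6 members were higher. The 6 came with array weights, where 21.4% of all genes were called higher and 26.2% lower. On none of these settings was a member lower. GATA3 209602_s_at had an adjusted p of 0.0933 with the replicate block and 0.0626 with array median centring, and ELF3 by gene 0.0739 and 0.0575. Of 419 values of 29 member results, 369 kept direction and call, 29 lost the call, 11 gained one and 10 changed sign. With hybridisation control centring the sign changed for TFAP2C 205286_at (0.0864, also by gene), TFAP2C 205287_s_at (0.0493) and SPDEF 213442_x_at (0.121). With array median centring it changed for SPDEF 213441_x_at (-0.000218). With arrays left out, the differences ran from -0.0343 to 0.0258 for SPDEF 213441_x_at, from -0.00692 to 0.0975 for 214404_x_at and from -0.00389 to 0.0660 for 220192_x_at, which stands for SPDEF by gene. Apart from these member results, signs of some list genes changed as well. They did so for ESR1 (0.0267), AGR2 (0.00267) and GRHL3 (0.00130) with hybridisation control centring. RARA (-0.0452) and SERP1 (0.100) changed sign with unmarked probe sets first, and SERP1 (0.184) with the mean of all probe sets. The cause was not tested. Dim probe sets (242021_at, 210669_at, 229842_at) lie below the median level, and no detection call says whether they are above background.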
